A study of Mus musculus with 12 samples.

Results

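Transcripts of 32 genes of cholesterol and fatty acid synthesis were examined in mouse T-lineage acute lymphoblastic leukemia (T-ALL, a malignancy of T-cell precursors), 4 hours after recipient mice were given dexamethasone (DEX, a synthetic glucocorticoid) or vehicle (VEH). The genes were taken from a fixed list of symbols for the pathway and its SREBP control, matched to the gene names of the deposited table, and all 32 were found among its 38339 genes. They were 5 regulators of SREBP, 18 enzymes of the sterol branch and 9 enzymes of the fatty acid branch. Expression was high enough for a test in 31 of the 32, among 12358 genes tested in all. The exception was Scd1.

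The 6 DEX libraries came from bone marrow of 6 moribund recipients given dexamethasone, and the 6 VEH libraries from 6 moribund recipients given vehicle. Each of 6 primary leukemias, on a C57BL/6 x 129Sv/Jae F1 background, gave 1 DEX and 1 VEH library, so each arm of a leukemia was 1 mouse. The leukemias are numbered here: leukemia 1 carried the code 73A-46B, leukemia 2 the code 73M-19A, leukemia 3 the code 78A-143B, leukemia 4 the code 2M-127B, leukemia 5 the code 20M-116B and leukemia 6 the code JW-81-59B. Total RNA was sequenced after red cells had been lysed, with no sort for leukemic cells named in the labels.

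Cells make cholesterol from acetyl-CoA through mevalonate and squalene, and make fatty acids from the same acetyl-CoA through malonyl-CoA. Both routes are switched on by SREBP transcription factors, which are held in the endoplasmic reticulum by INSIG proteins when sterols are plentiful, and are carried to the Golgi by SCAP and cut there when sterols are scarce. SREBP-2 acts mainly on sterol genes and SREBP-1c mainly on fatty acid genes. Growing lymphoid cells draw on both products for new membrane.

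Values are FPKM (fragments per kilobase of gene, scaled by library depth), and the table held no counts. The column sums were 1466471 to 2019058 FPKM, with 11778 to 12970 genes at 1 FPKM or more. In leukemias 2, 5 and 6 the sum was larger in DEX, at 1910539, 1799765 and 2019058 against 1507527, 1556034 and 1664239 FPKM in VEH. It was also larger in DEX in leukemia 4, at 1675308 against 1629316 FPKM in VEH. In leukemias 1 and 3 it was smaller in DEX, at 1466471 and 1725639 against 1485323 and 1746848 FPKM in VEH. The labels of the DEX libraries of leukemias 2, 5 and 6 lacked an S number that the other libraries carried. Leukemias 2, 5 and 6 and leukemias 1, 3 and 4 were each also fitted alone. The part of the label difference in the results was not tested further. Depth estimated from sparse genes was 11700000 to 36500000 fragments in 11 libraries, and could not be read reliably in the VEH library of leukemia 2, where 15.4% of these genes lay near the estimate. All 13 T-lineage markers averaged at least 1 FPKM, and their summed level was 2861 to 5262 FPKM in DEX and 3202 to 5463 FPKM in VEH. At the threshold used below, 3 of the 13 (Cd2, Cd3g and Lck) were lower in DEX and 0 higher. Over all genes tested, 9.28% were lower. Granulocyte markers, all 13 of which averaged at least 1 FPKM, summed to 1534 to 5512 FPKM in DEX and 2333 to 9117 FPKM in VEH, and were lower in DEX in 5 of 6 leukemias. Monocyte markers summed to 29.6 to 133 FPKM in DEX and 44.1 to 160 FPKM in VEH, and 8 of 11 averaged at least 1 FPKM. Erythroid markers summed to 16.9 to 153 FPKM in DEX and 10.1 to 1209 FPKM in VEH, and B-lineage markers to 1.97 to 10.2 FPKM in DEX and 2.04 to 55.7 FPKM in VEH. The VEH library of leukemia 2 held the highest value of both. Stromal markers summed to 17.3 to 75.8 FPKM in DEX and 11.99 to 59.2 FPKM in VEH, and 2 of 7 averaged at least 1 FPKM. Their sum was higher in DEX in 6 of 6 leukemias and was mostly Pdgfrb. That gene averaged 37.3 FPKM in DEX and 25.9 FPKM in VEH, and was called higher at the threshold used below. Of 7 adipocyte markers, only Fabp4 averaged at least 1 FPKM, while Lep was at 0 in 9 of 12 libraries and Cidec in 7. The adipocyte sum was 3.69 to 7.06 FPKM in DEX and 3.09 to 5.18 FPKM in VEH, and was lower in DEX in 1 of 6 leukemias. The monocyte, erythroid and B-lineage sums were lower in DEX in 4, 3 and 4 of 6 leukemias. The part of these admixtures in the results was not tested beyond the values given with granulocyte markers as a covariate.

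With DEX, 5 of the 31 tested genes fell and 0 rose at an adjusted p under 0.05 (limma, with leukemia as a block). Over all genes tested, 9.28% were lower and 4.27% higher, 13.6% in either direction. The 5 genes were Insig2, which encodes an anchor that retains SCAP and SREBP, and Fasn, Scd2, Elovl6 and Fads2, which encode enzymes that build, desaturate and lengthen fatty acids. The 18 sterol enzymes gave 0 higher and 0 lower, against 0 higher and 4 lower of 8 tested fatty acid enzymes, a count of 2 lower with median-of-ratios scaling or quantile normalization. The median difference, DEX minus VEH on the log2(FPKM + 1) scale, was -0.28 for the fatty acid enzymes, -0.09 for the sterol enzymes, 0.07 for the regulators and -0.05 for all genes tested. In bulk RNA, fewer cells of a type and less RNA per cell cannot be told apart.

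**Figure D1:**
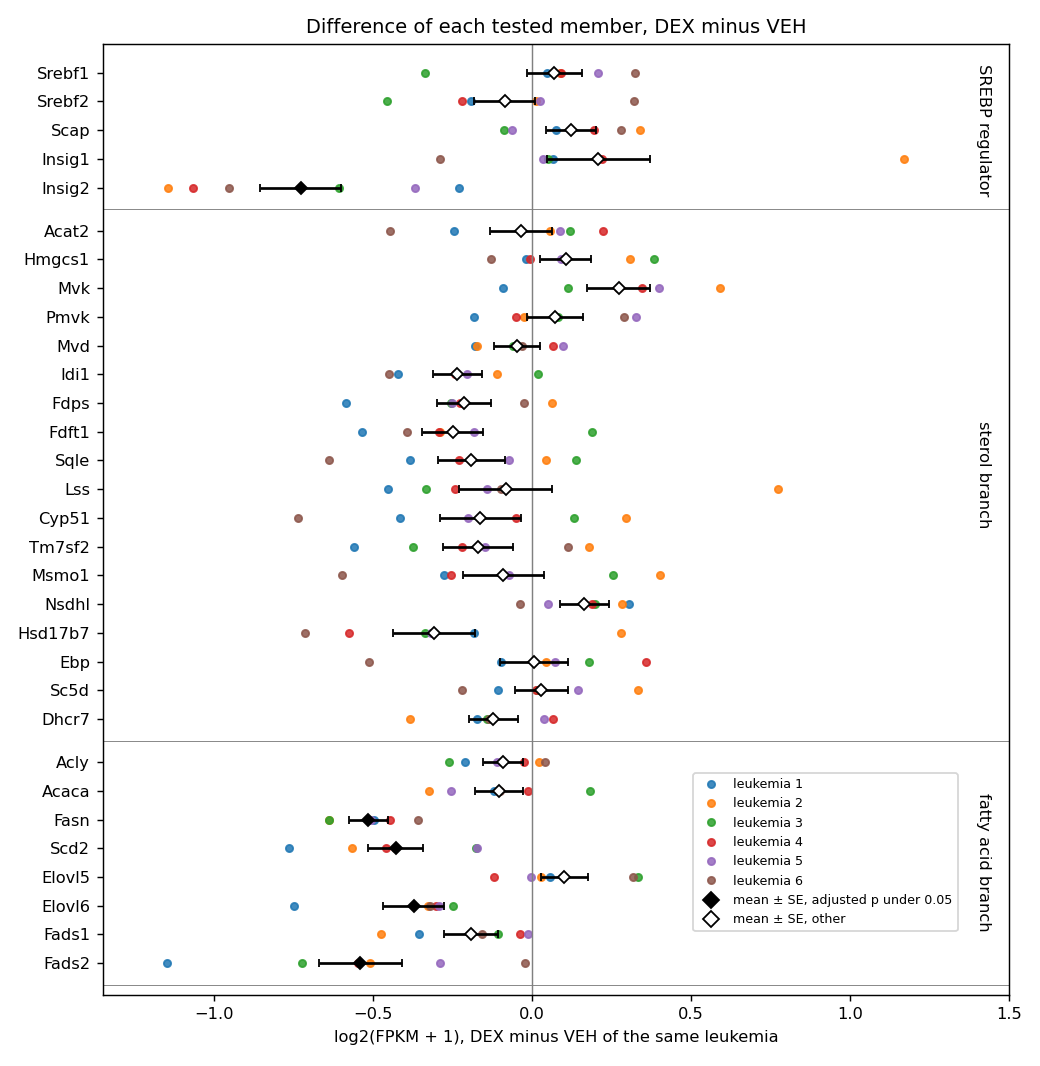
Difference of each of the 31 tested genes on the log2(FPKM + 1) scale, DEX minus VEH of the same leukemia. Coloured points are the 6 leukemias and diamonds the mean ± SE of the fit, filled where the adjusted p was under 0.05; the 5 filled diamonds are Insig2, Fasn, Scd2, Elovl6 and Fads2, and all of their points lie below 0.

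DEX and VEH values overlapped in all 31 tested genes, and 0 had every DEX library below every VEH library (1.34% of all genes tested did). Within pairs, 6 of the 31 were lower in DEX in all 6 leukemias, against 13.7% of all genes tested. These were the 5 genes above and Fads1, which did not pass the test.

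Promoters of 26 of the 32 genes were found in the RefSeq table for GRCm38.p6, which gives 250 bases before and 50 after each start. Those of 4 of the genes that fell are shown to set them beside Hmgcs1, a sterol gene that did not pass the test; Scd2 was not in the table. Each runs 5′ to 3′ along the gene's own strand, and capitals mark matches, on either strand, to TCACNCCAC (a sterol regulatory element), CCAAT (the box bound by NF-Y), CACGTG (an E-box), GGGCGG (a GC box) or ACANNNTGT (the core of a glucocorticoid receptor element). Insig2 is the most upstream of 3 listed promoters, at chr1:121332540-121332839 on the minus strand. Fasn is at chr11:120824498-120824797 on the minus strand, Elovl6 at chr3:129532136-129532435 on the plus strand, Fads2 at chr19:10101454-10101753 on the minus strand and Hmgcs1 at chr13:119690101-119690400 on the plus strand.
Insig2: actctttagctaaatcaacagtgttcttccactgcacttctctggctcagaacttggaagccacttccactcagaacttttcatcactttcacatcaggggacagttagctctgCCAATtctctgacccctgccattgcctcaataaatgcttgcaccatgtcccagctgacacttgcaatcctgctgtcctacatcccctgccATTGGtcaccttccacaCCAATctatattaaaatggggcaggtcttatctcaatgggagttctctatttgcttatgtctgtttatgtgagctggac
Fasn: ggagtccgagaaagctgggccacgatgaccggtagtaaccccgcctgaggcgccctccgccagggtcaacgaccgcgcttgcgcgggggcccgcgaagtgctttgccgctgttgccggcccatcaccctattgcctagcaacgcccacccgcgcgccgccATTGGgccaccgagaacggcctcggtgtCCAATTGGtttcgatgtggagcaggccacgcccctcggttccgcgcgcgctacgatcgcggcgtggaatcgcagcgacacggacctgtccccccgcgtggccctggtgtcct
Elovl6: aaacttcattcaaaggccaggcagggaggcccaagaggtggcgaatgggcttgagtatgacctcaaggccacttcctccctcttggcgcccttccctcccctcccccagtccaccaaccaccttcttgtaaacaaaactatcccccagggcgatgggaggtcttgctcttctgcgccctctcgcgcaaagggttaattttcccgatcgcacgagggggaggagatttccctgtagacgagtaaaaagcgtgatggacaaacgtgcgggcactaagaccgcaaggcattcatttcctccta
Fads2: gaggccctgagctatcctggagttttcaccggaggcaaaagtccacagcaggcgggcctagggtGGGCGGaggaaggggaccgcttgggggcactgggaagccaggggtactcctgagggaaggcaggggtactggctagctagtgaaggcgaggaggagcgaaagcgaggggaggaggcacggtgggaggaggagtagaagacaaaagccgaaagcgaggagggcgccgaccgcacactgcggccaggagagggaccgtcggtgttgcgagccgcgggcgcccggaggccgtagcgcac
Hmgcs1: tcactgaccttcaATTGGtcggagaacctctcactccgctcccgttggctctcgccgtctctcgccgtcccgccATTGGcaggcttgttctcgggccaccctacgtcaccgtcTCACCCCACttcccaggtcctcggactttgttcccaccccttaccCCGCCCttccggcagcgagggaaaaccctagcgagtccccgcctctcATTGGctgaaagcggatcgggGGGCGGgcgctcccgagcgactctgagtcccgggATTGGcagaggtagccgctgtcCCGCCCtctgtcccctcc

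Hmgcs1 held 1 sterol regulatory element, 4 NF-Y boxes and 3 GC boxes. No other of the 26 genes held a sterol regulatory element in this spelling, so Hmgcs1 does not stand for the sterol branch here. The printed promoters of Insig2 and Fasn held 3 NF-Y boxes each, those of Fasn including a pair that overlaps on opposite strands, and no other motif. A GC box was found in a listed promoter of Insig2 that is not shown. Fads2 held 1 GC box and Elovl6 no match. Over the branches, an NF-Y box was found in 14 of 15 sterol genes and 3 of 6 fatty acid genes with a listed promoter. A GC box was found in 14 of 15 and 2 of 6. Counted by gene in the same way, the shares of tested genes were 43.5% for the NF-Y box, 68.3% for the GC box and 12% for the E-box. The shares below are counted by promoter. An NF-Y box stood in 64.7% of the 34 listed promoters of the genes, against 37.4% of all 32851 promoters and 38.4% of the 11109 promoters of tested genes. The GC box stood in 73.5%, against 35.7% of all promoters and 62.0% of those of tested genes. The E-box stood in 20.6%, against 7.15% of all promoters and 10.1% of those of tested genes, in 6 of the 26 genes. Sterol regulatory elements in this strict spelling were rarer than these motifs, and were found in 1 gene (Hmgcs1). That was 2.94% of the 34 promoters, against 1.24% of all promoters and 1.12% of those of tested genes. The glucocorticoid receptor core was found for Acat2 alone, in 2.94% of the 34 promoters. It stood in 6.85% of all promoters and 4.2% of those of tested genes. A match is a description of the letters, and no match says only that they are not in this window.

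Among the 5 regulators, Insig2 fell and the other 4 did not pass the test. Insig2 lies at chr1:121304353-121332589 (minus strand, GRCm38). It had 12.8, 18.6 and 43.3 FPKM (lowest, median and highest) in DEX, against 16.0, 30.3 and 91.7 FPKM in VEH. Leukemia 4 was the highest in both arms, far above the other 5, and each leukemia was lower in DEX. The mean was 21.5 ± 11.3 FPKM in DEX and 38.6 ± 26.7 FPKM in VEH (SD, n = 6 each), 44.2% lower in DEX. The log2 difference was -0.73 ± 0.13 (SE; limma adjusted p = 0.00898), and it ran from -1.14 in leukemia 2 to -0.23 in leukemia 1. Without leukemia 2 it was -0.64 (adjusted p = 0.0236), and with granulocyte markers as a covariate -0.66 (adjusted p = 0.0334). The call was lost with no filter on low genes (adjusted p = 0.0553) and in leukemias 1, 3 and 4 alone (adjusted p = 0.0624).

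Insig1, the paralog of Insig2 and itself a target of SREBP, differed mainly in 1 leukemia. It had 15.6, 19.9 and 39.0 FPKM (lowest, median and highest) in DEX, against 14.8, 18.1 and 26.6 FPKM in VEH. The highest DEX value was leukemia 2, where VEH had 16.8 FPKM; the other 5 leukemias differed by -0.29 to 0.22 on the log2 scale. The difference was 0.21 ± 0.16 (SE; limma adjusted p = 0.421), and 0.02 without leukemia 2. The ratio of Insig1 to Insig2 FPKM was higher in DEX in 6 of 6 leukemias, at 1.30 ± 0.91 in DEX and 0.62 ± 0.26 in VEH (SD, n = 6 each). Leukemia 2 gave the highest DEX ratio, at 3.06 in DEX and 0.572 in VEH, while the other 5 lay between 0.497 and 1.36 in DEX and between 0.2002 and 0.928 in VEH.

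The SREBP genes themselves differed little. Srebf1, which encodes SREBP-1, had 34.7, 40.2 and 45.5 FPKM (lowest, median and highest) in DEX, against 31.3, 36.1 and 57.8 FPKM in VEH, a log2 difference of 0.07 ± 0.09 (SE; limma adjusted p = 0.618). Srebf2, which encodes SREBP-2, had 28.0, 37.6 and 48.8 FPKM in DEX, against 22.2, 43.0 and 67.4 FPKM in VEH, a difference of -0.09 ± 0.10 (adjusted p = 0.579). Both were lower in DEX in leukemia 3, and both were higher in leukemias 2, 5 and 6. Gene-level FPKM do not separate the SREBP-1a and SREBP-1c forms of Srebf1. Scap, the escort of SREBP to the Golgi, averaged 25.1 ± 4.76 FPKM in DEX and 23.1 ± 5.24 FPKM in VEH (SD, n = 6 each; limma adjusted p = 0.322).

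In the fatty acid branch, the 4 genes that fell act from the synthase onwards. Acly, which makes cytosolic acetyl-CoA from citrate and had the highest level of all 32 genes, averaged 72.6 ± 3.5 FPKM in DEX and 77.6 ± 6.52 FPKM in VEH (SD, n = 6 each; limma adjusted p = 0.360). Acaca, the carboxylase that makes malonyl-CoA, averaged 32.7 ± 6.16 FPKM in DEX and 35.2 ± 5.90 FPKM in VEH (adjusted p = 0.383). Neither passed the test.

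Fasn, the synthase that assembles palmitate (chr11:120805846-120824547, minus strand), had 20.3, 32.05 and 43.9 FPKM (lowest, median and highest) in DEX, against 31.6, 44.4 and 60.2 FPKM in VEH. The mean was 30.8 ± 8.69 FPKM in DEX and 44.2 ± 11.5 FPKM in VEH (SD, n = 6 each). The log2 difference was -0.51 ± 0.06 (SE; limma adjusted p = 0.00232). It was the most even fall of the 5, between -0.64 and -0.36 in every leukemia, while the arms overlapped. With granulocyte markers as a covariate it was -0.53 (adjusted p = 0.00696), and without leukemia 2 -0.49 (adjusted p = 0.00746). The call was lost in leukemias 2, 5 and 6 alone (adjusted p = 0.0597). The ratio of Fasn to Acaca FPKM was 0.934 ± 0.167 in DEX and 1.28 ± 0.395 in VEH (SD, n = 6 each), higher in DEX in 0 of 6 leukemias.

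The stearoyl-CoA desaturases put the first double bond into saturated fatty acids. Scd2 (chr19:44293674-44306864, plus strand) had 39.5, 53.8 and 70.7 FPKM (lowest, median and highest) in DEX, against 53.6, 74.8 and 91.4 FPKM in VEH. The means were 55.6 ± 11.3 FPKM in DEX and 74.8 ± 12.3 FPKM in VEH (SD, n = 6 each), and the log2 difference was -0.43 ± 0.09 (SE; limma adjusted p = 0.0147). The fall was steepest in leukemia 1, at -0.77, and smallest in leukemias 3 and 5, at -0.18 and -0.17. With granulocyte markers as a covariate the difference was -0.36 (adjusted p = 0.0463), and without leukemia 2 -0.40 (adjusted p = 0.0394). The call was lost with no filter on low genes (adjusted p = 0.0588) and in either set of 3 leukemias (adjusted p = 0.0692 and 0.0993). Scd1, its close paralog and the main form in mouse liver and fat, had 0.06, 0.11 and 0.52 FPKM in DEX, against 0.07, 0.18 and 2.10 FPKM in VEH, and was too low to test. Nearly all of the FPKM of the pair thus lay with Scd2, although reads shared by the paralogs could have been split between them.

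Elovl6, which lengthens palmitate to stearate (chr3:129532355-129638495, plus strand), was near the lower end of the range. It had 1.53, 3.07 and 4.4 FPKM (lowest, median and highest) in DEX, against 2.10, 3.95 and 8.07 FPKM in VEH, and a log2 difference of -0.37 ± 0.10 (SE; limma adjusted p = 0.0342). The difference was -0.75 in leukemia 1 and -0.33 to -0.25 in the other 5. The call was lost, at an adjusted p of 0.0526 to 0.0980, whichever leukemia was left out, and with granulocyte markers as a covariate, at 0.0824. It was also lost with median-of-ratios scaling (adjusted p = 0.0589), quantile normalization (adjusted p = 0.0864), no filter on low genes (adjusted p = 0.120), a minimum mean of 3 FPKM (adjusted p = 0.0609) and in either set of 3 leukemias (adjusted p = 0.114 and 0.279).

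Fads2, the delta-6 desaturase that starts the making of long polyunsaturated fatty acids (chr19:10062765-10101746, minus strand), had 9.33, 12.9 and 18.4 FPKM (lowest, median and highest) in DEX, against 11.6, 16.2 and 36.9 FPKM in VEH. The log2 difference was -0.54 ± 0.13 (SE; limma adjusted p = 0.0283). It ran from -1.15 in leukemia 1 to -0.02 in leukemia 6. The call was lost without any one of leukemias 1 to 5, at an adjusted p of 0.0575 to 0.0712, and held with granulocyte markers as a covariate (-0.62, adjusted p = 0.0394). In leukemias 2, 5 and 6 alone the difference was -0.27 (adjusted p = 0.279). The call was also lost with median-of-ratios scaling (adjusted p = 0.0542), quantile normalization (adjusted p = 0.0535) and no filter on low genes (adjusted p = 0.112). Fads1, the delta-5 desaturase beside it on chromosome 19, averaged 9.31 ± 1.18 FPKM in DEX and 10.8 ± 1.69 FPKM in VEH (SD, n = 6 each) and did not pass the test (limma adjusted p = 0.168). Elovl5, which lengthens polyunsaturated chains, averaged 69.9 ± 15.3 FPKM in DEX and 64.9 ± 12.8 FPKM in VEH (adjusted p = 0.397), and was the only tested fatty acid enzyme with a difference above 0.

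**Figure D2:**
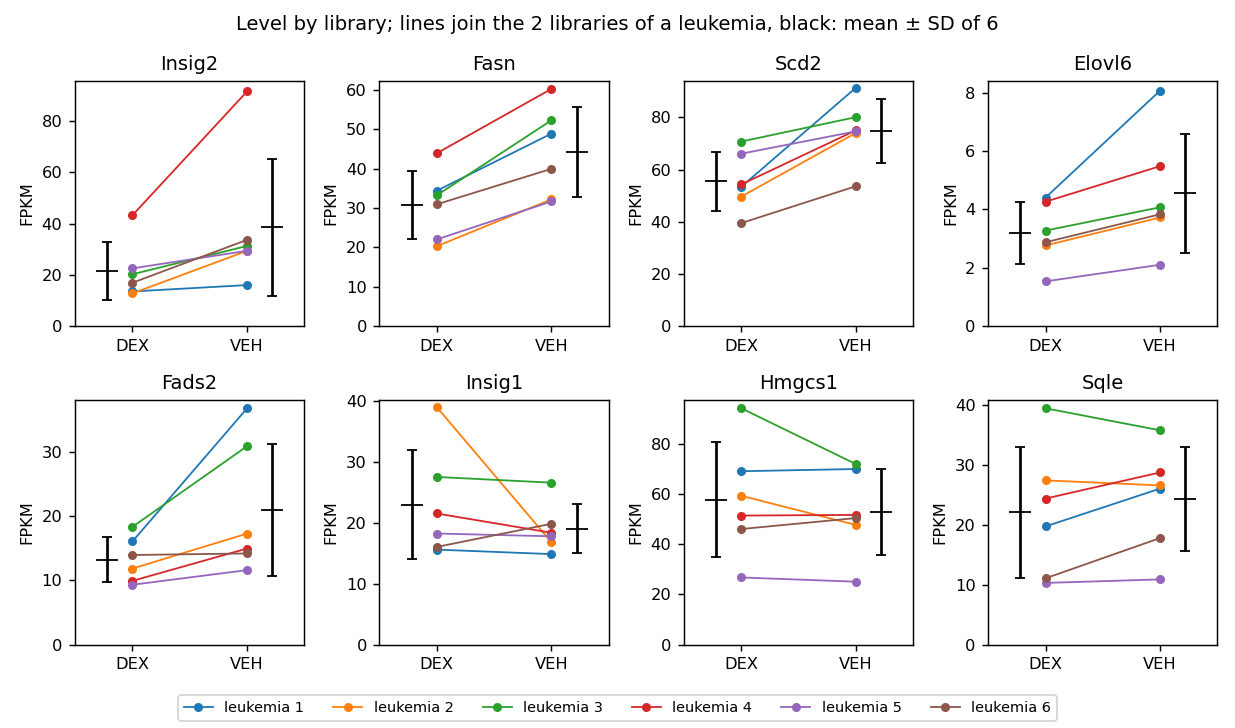
FPKM of 8 genes in each library, with lines joining the DEX and VEH libraries of a leukemia and black bars giving the mean ± SD of 6. All 6 lines of Insig2, Fasn, Scd2, Elovl6 and Fads2 are lower at DEX, while those of Insig1, Hmgcs1 and Sqle run both ways.

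In the sterol branch, no enzyme passed the test. An unadjusted limma p under 0.05 was reached by 5 of the 18. Idi1, Fdps, Fdft1 and Hsd17b7 were lower in DEX and Mvk higher. The share of all genes at that unadjusted level is not given here, so the count is not read as a result. The differences of the 18 ran from -0.31 for Hsd17b7 to 0.27 for Mvk. Hsd17b7 passed without leukemia 2 (-0.43, limma adjusted p = 0.0437), Fdft1 without leukemia 3 (-0.34, adjusted p = 0.0374), and Idi1 and Fdps with values rescaled to TPM. The first steps leaned neither way: Acat2 (acetoacetyl-CoA thiolase) averaged 18.9 ± 5.32 FPKM in DEX and 19 ± 3.52 FPKM in VEH (SD, n = 6 each), with reads that its near copy Acat3 may share. Hmgcs1, the cytosolic HMG-CoA synthase, had 26.8, 55.5 and 94.4 FPKM (lowest, median and highest) in DEX, against 25.1, 51.2 and 72.1 FPKM in VEH, a log2 difference of 0.11 ± 0.08 (SE; limma adjusted p = 0.406). Its highest library was leukemia 3 and its lowest leukemia 5 in both arms. Mvk, mevalonate kinase, averaged 8.69 ± 1.71 FPKM in DEX and 7.16 ± 2.12 FPKM in VEH (SD, n = 6 each) and was higher in DEX in 5 of 6 leukemias, without passing the test (limma adjusted p = 0.101). The next enzymes, Pmvk and Mvd, differed by 0.07 and -0.05.

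From isopentenyl diphosphate to squalene, the values were lower in DEX in most leukemias without passing the test. Idi1, the isomerase, differed by -0.24 (limma adjusted p = 0.0736), Fdps, which makes farnesyl diphosphate, by -0.21 (adjusted p = 0.131), and Fdft1, squalene synthase, by -0.25 (adjusted p = 0.118). Fdft1 shares 18.3% of its exon length with Ctsb on the other strand, and whether counting used strand is not given in the sources used here. Fdps shares 26.7% with Gm43738 on its own strand.

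Sqle, squalene epoxidase, which adds the first oxygen to squalene, had 10.3, 22.1 and 39.5 FPKM (lowest, median and highest) in DEX, against 10.9, 26.3 and 35.8 FPKM in VEH, a log2 difference of -0.19 ± 0.10 (SE; limma adjusted p = 0.254). Cyp51, the lanosterol demethylase, had 7.81, 19 and 24.6 FPKM in DEX, against 9.14, 21.9 and 24.2 FPKM in VEH, a difference of -0.16 (adjusted p = 0.421). For both, leukemia 5 was the lowest library of each arm, and leukemia 6 had the widest gap with DEX lower. Lss, which closes the sterol ring, differed by -0.08 (adjusted p = 0.738), with leukemia 2 higher in DEX by 0.77 and the other 5 lower. Of the later enzymes, Tm7sf2, Msmo1, Hsd17b7 and Dhcr7 had differences of -0.31 to -0.09, and Nsdhl, Ebp and Sc5d of 0.01 to 0.16. Tm7sf2 shares 12.1% of its exon length with Vps51 on its own strand.

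The branches were then set side by side within each leukemia. The mean difference over the 8 tested fatty acid enzymes was below 0 in 6 of 6 leukemias, from -0.47 in leukemia 1 to -0.13 in leukemia 6, and averaged -0.27 ± 0.12 (SD, n = 6). The mean over the 18 sterol enzymes was -0.26, 0.15, 0.02, -0.06, -0.02 and -0.25 in leukemias 1 to 6 and averaged -0.07 ± 0.16. Sterol minus fatty acid was above 0 in 5 of 6 leukemias and averaged 0.20 ± 0.20 (SD, n = 6), the exception being leukemia 6, at -0.12. The number of sterol enzymes lower in DEX was 17 of 18 in leukemia 1 and 15 in leukemia 6, against 5 in leukemia 2, 6 in leukemia 3, 9 in leukemia 5 and 11 in leukemia 4. Each of these arms is a single mouse.

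**Figure D3:**
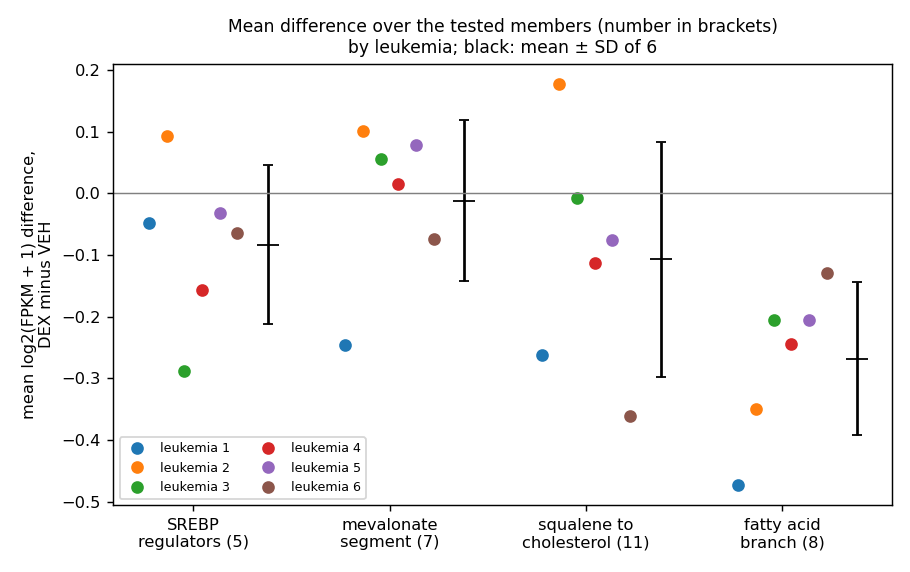
Mean difference over the tested genes of each group, DEX minus VEH on the log2(FPKM + 1) scale, 1 point per leukemia and bars for the mean ± SD of 6. The 6 points of the fatty acid branch lie between -0.47 and -0.13, while those of both sterol segments lie on both sides of 0.

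Between leukemias, 22 of the 31 tested genes differed (limma F test on the leukemia terms, adjusted p under 0.05), against 51.1% of all genes tested. They included 13 of 18 sterol enzymes, 6 of 8 fatty acid enzymes and 3 of 5 regulators. The widest ranges of leukemia means on the log2 scale were 2.03 for Insig2, 1.74 for Sqle, 1.63 for Hmgcs1 and 1.37 for Cyp51. Leukemia 5 was the lowest for 11 of 18 sterol enzymes in DEX and for 13 in VEH. Leukemia 3 was the highest for 12 in DEX and for 10 in VEH. Relative to each gene's own mean, the median sterol enzyme in leukemia 5 was at -0.42 in DEX and -0.52 in VEH, and in leukemia 3 at 0.42 in DEX and 0.32 in VEH. The order of leukemias in the sterol branch at its ends was therefore alike in both arms. Of the 8 tested fatty acid enzymes, leukemia 5 was the lowest for 4 in DEX and for 4 in VEH. Their highest leukemia varied more: in DEX, leukemias 3 and 6 were the highest for 3 each, and in VEH, leukemia 1 was the highest for 4.

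**Figure D4:**
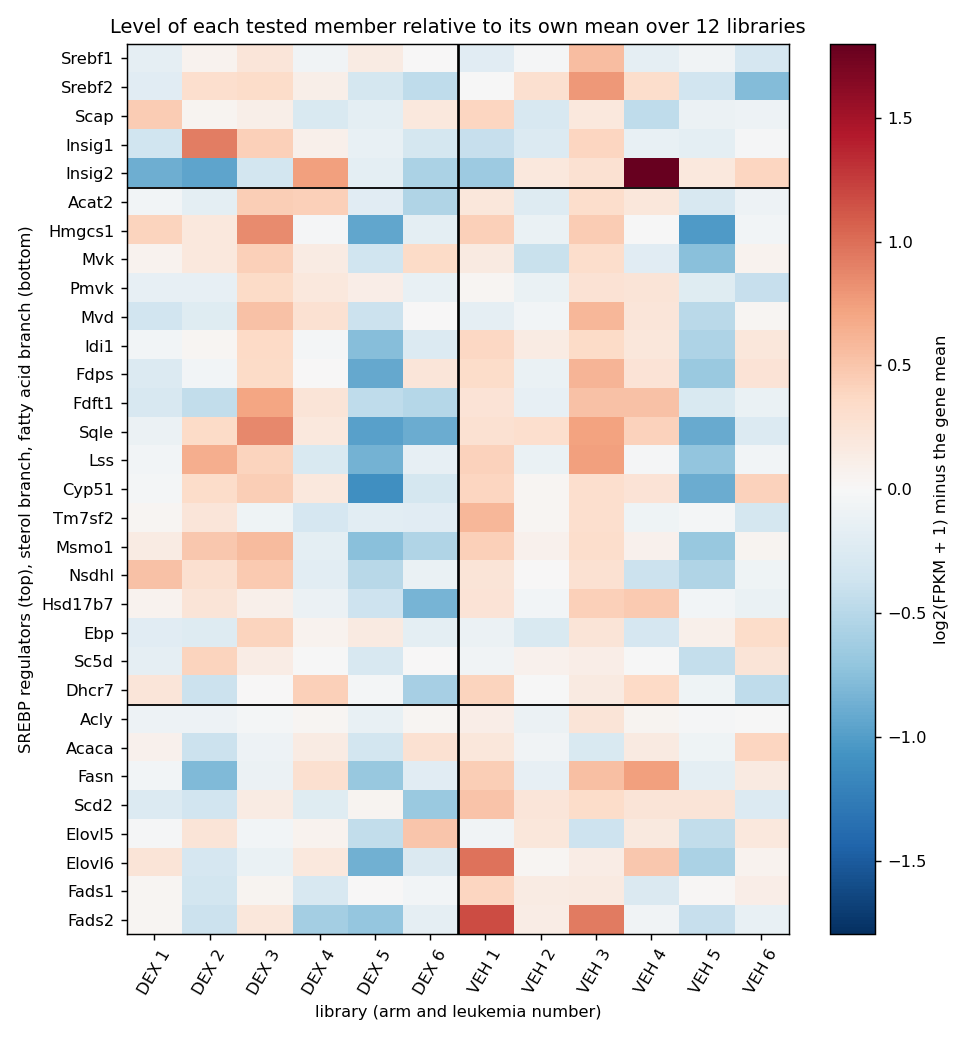
Level of each tested gene in each library, as log2(FPKM + 1) minus the gene's mean over 12 libraries, with DEX libraries on the left and VEH libraries on the right. Most sterol enzymes are below their mean in leukemia 5 and above it in leukemia 3 in both arms, and the highest single value is Insig2 in the VEH library of leukemia 4.

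Levels per length spanned a wide range. Over all 12 libraries, Acly averaged 75.1 FPKM, Elovl5 67.4, Scd2 65.2, Hmgcs1 55.4 and Fdps 51.3 FPKM, and at the other end Elovl6 averaged 3.86 and Scd1 0.383 FPKM. Srebf2 and Srebf1 averaged 40.5 and 39.5 FPKM, closer than the spread between leukemias.

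Other genes of the pathway were taken from 7 lists of processing, synthesis, transport and use, with 68 of 80 tested. Of these, 3 rose, 6 fell and 59 did not pass the test, and their median difference was -0.04. Over all genes tested, 4.27% were higher and 9.28% lower, with a median of -0.05. The counts in these lists were thus near the shares of all genes, and the genes named below are single cases. The median was -0.18 for the 5 tested genes of other sterol synthesis, with 5 below 0 and 1 called lower. It was -0.07 for the 14 tested genes of other fatty acid synthesis, with 9 below 0, 5 above and 2 called lower. By median, the order of the branches was thus the reverse of that in the 32 genes. Mbtps1, the site-1 protease that makes the first cut in SREBP, rose in all 6 leukemias. It had 58.6, 94.2 and 118.1 FPKM (lowest, median and highest) in DEX, against 39.3, 43.4 and 62.2 FPKM in VEH, a log2 difference of 0.93 ± 0.12 (SE; limma adjusted p = 0.00296). The other 6 genes of SREBP processing did not pass. Of the 14 genes of other fatty acid synthesis, Hacd3 and Mid1ip1 fell and 12 did not pass. Hacd3, a dehydratase of very long chain synthesis, averaged 17.7 ± 2.46 FPKM in DEX and 25.8 ± 2.82 FPKM in VEH (SD, n = 6 each). Its limma adjusted p was 0.00350, and every DEX library lay below every VEH library. Mid1ip1, a partner of acetyl-CoA carboxylase, fell by 0.49 on the log2 scale (adjusted p = 0.0125).

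Of 12 genes of sterol uptake and transport, 2 fell, against 9.28% of all genes tested. Scarb1, the receptor for high density lipoprotein, averaged 6.90 ± 1.79 FPKM in DEX and 9.73 ± 1.65 FPKM in VEH (SD, n = 6 each; limma adjusted p = 0.0134), and Lrp8, a lipoprotein receptor that also binds reelin, 7.60 ± 0.564 FPKM in DEX and 9.81 ± 1.49 FPKM in VEH (adjusted p = 0.0340). None of 6 tested genes of efflux and the LXR response passed, and Abca1, the cholesterol exporter, was too low to test.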

How the data were processed

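RNA of 12 libraries was analysed, 6 DEX and 6 VEH, grouped by the treatment condition in the labels and paired by the leukemia code in the titles. The authors deposited linear FPKM values. The submitters' processing notes list edgeR, RSEM and Bowtie2 (version 2), with no roles, and the build mm10, and an annotation is not given in the sources used here. Depth is known only as an estimate, so no counting interval is given.

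Values were analysed as log2(FPKM + 1), for genes with at least 1 FPKM in at least 6 libraries, with leukemia and treatment as terms in limma 3.58.1 (R 4.3.3; moderated with a trend, with prior degrees of freedom of 3.99 and 5 residual). Tests were two-sided, adjusted by Benjamini-Hochberg over all 12358 genes, with a threshold of 0.05. Fold changes of low genes are understated on this scale. Each leukemia is 1 replicate. The pairing was checked: after group means were removed, libraries of a leukemia correlated across genes at 0.55 to 0.82, and those of different leukemias at up to 0.21. The fit was tested on simulated data. Coordinates are GENCODE M21 (GRCm38) and promoters RefSeq GRCm38.p6.

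The genes and lists were chosen with earlier results of these data known. All 32 genes are accounted for. The lowest, median and highest library values of each arm are given for those past the threshold and for the 4 widest ranges between leukemias. The same values are given for Srebf1, Srebf2, Insig1, Hmgcs1, Sqle, Fasn, Scd1 and Scd2. Of other pathway genes, those past the threshold, up to 4 a list, are named with Abca1 and Cpt1a; some genes that the rule names are not reported here. There were 19 alternatives: pseudocount, filter, scaling, variance model, block, each leukemia left out, subsets of leukemias and a granulocyte covariate.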

Additional observations from a re-analysis of the deposited data

Results flagged for a closer look

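Among 95 sets of 6 values (DEX levels, VEH levels and differences of each gene), 8 had an end value far from the other 5, by Dixon's test at 95%; chance gives about 1 in 20. Leukemia 4 stood high for Insig2 in both arms, at 43.3 FPKM in DEX and 91.7 FPKM in VEH. In leukemia 2, the difference of Insig1 was 1.17 and that of Lss 0.77 on the log2 scale, DEX minus VEH, both far above the other leukemias, and Scd1 was highest in its VEH library, at 2.10 FPKM. That VEH library was also the one with the most erythroid and B-lineage marker RNA, and the part of this in the 3 values was not tested. In leukemia 1, the difference of Elovl6 was -0.75, against -0.33 to -0.25 elsewhere. Srebf1 was highest in the VEH library of leukemia 3, at 57.8 FPKM. Among the VEH libraries, Idi1 was lowest in leukemia 5, at 21.1 FPKM.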

How the results depend on the processing

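The 5 genes that fell kept their sign under all 19 alternatives. Their calls were lost under 3 alternatives for Insig2, 2 for Fasn, 4 for Scd2, 14 for Elovl6 and 10 for Fads2. None of the genes was called higher under any of the 19. The number called lower was 1 with no filter, 3 with median-of-ratios scaling, 3 with quantile normalization, 2 in leukemias 1, 3 and 4 alone, 1 in leukemias 2, 5 and 6 alone and 3 to 4 with 1 leukemia left out. Without the replicate block, 0 were lower, and over all genes 35 were higher and 46 lower, so the calls rest on the pairing. TPM gave 7 genes lower, Idi1 (-0.36) and Fdps (-0.34) among them, and moved the median of all genes to -0.16. Sterol minus fatty acid kept its sign, at 0.14 to 0.26 with 1 leukemia left out.

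Over all genes, the number higher and lower was 528 and 1147, against 683 and 718 with median-of-ratios scaling, 651 and 843 with quantile normalization, 268 and 1844 with TPM and 181 and 370 with no filter. It was 270 and 275 in leukemias 2, 5 and 6 alone, 399 and 525 in leukemias 1, 3 and 4 alone, and 234 to 537 and 420 to 1035 with 1 leukemia left out.

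Over the 19 alternatives, genes that did not pass changed sign 30 times, each time counted as 1 gene under 1 alternative. With TPM these were Srebf1 (-0.065), Scap (-0.011), Hmgcs1 (-0.030), Pmvk (-0.052), Ebp (-0.12), Sc5d (-0.098) and Elovl5 (-0.036). With median-of-ratios scaling they were Acat2 (0.024) and Mvd (0.0098), and with quantile normalization Acat2 (0.014) and Mvd (0.0074). Leukemias 1, 3 and 4 alone turned Srebf1 (-0.067), Acat2 (0.031), Pmvk (-0.051), Sc5d (-0.027) and Acaca (0.016), and leukemias 2, 5 and 6 alone Srebf2 (0.12), Lss (0.18), Tm7sf2 (0.048) and Ebp (-0.13). The granulocyte covariate turned Srebf1 (-0.022) and Acat2 (0.054). With 1 leukemia left out, Acat2 ran from -0.086 to 0.047, Ebp from -0.064 to 0.11, Sc5d from -0.032 to 0.079 and Msmo1 from -0.19 to 0.011. The cause was not tested.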

Other observations

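Beyond synthesis, genes of the use of fatty acids moved unevenly. None of 12 tested genes of fatty acid oxidation passed the test, and Cpt1a, the mitochondrial carnitine palmitoyltransferase, averaged 54.9 ± 7.71 FPKM in DEX and 54.9 ± 6.14 FPKM in VEH (SD, n = 6 each; limma adjusted p = 0.973). Of 12 tested genes of triglyceride and phospholipid synthesis, 2 rose and 1 fell, against 4.27% higher and 9.28% lower of all genes tested. Agpat2, which makes phosphatidic acid, had 21.9, 47.6 and 53.7 FPKM (lowest, median and highest) in DEX, against 8.17, 13.2 and 18.2 FPKM in VEH, with every DEX library above every VEH library (log2 difference 1.60 ± 0.09 SE; limma adjusted p = 7.6e-05). Chka, choline kinase alpha, averaged 37.96 ± 16.2 FPKM in DEX and 22.9 ± 7.44 FPKM in VEH (adjusted p = 0.00304). Dgat1, which makes triglyceride, averaged 14.1 ± 3.33 FPKM in DEX and 17.9 ± 3.68 FPKM in VEH (adjusted p = 0.0184).

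The ratio of Fads2 to Fads1 FPKM was 1.421 ± 0.293 in DEX and 1.90 ± 0.709 in VEH (SD, n = 6 each), higher in DEX in 1 of 6 leukemias. The ratio of Srebf1 to Srebf2 was 1.09 ± 0.251 in DEX and 0.982 ± 0.272 in VEH, higher in DEX in 5 of 6 leukemias.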
